A study of Mus musculus with 47 samples.

Results

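The 10 endocrine and neuroendocrine genes described here were measured in sorted medullary thymic epithelial cells (mTECs) of mice: the transcription factor genes Neurod1 and Insm1, the granule protein genes Chga and Chgb, the islet and gut hormone genes Ins2, Gcg, Sst, Ghrl and Iapp, and the hypothalamic hormone gene Avp. They are a list of named genes with no threshold on their values, drawn up with earlier results of these data known, and are 10 of the 53402 genes listed for adult and of the 55471 listed for neonatal mice. All 10 passed the filter on low counts in both tables.

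Medullary epithelial cells of the thymus transcribe genes that otherwise belong to peripheral organs, and display their products to developing T cells. The transcriptional regulator Aire drives many of these genes in mature mTECs, and other mTECs take on features of peripheral cell types, endocrine cells among them. EED is a core subunit of the Polycomb repressive complex PRC2, which places the repressive histone mark H3K27me3. In endocrine cells of the islet, gut and brain, Neurod1 and Insm1 act upstream of hormone production, the granins Chga and Chgb are stored in dense-core secretory granules, and prohormones are cleaved in those granules before release.

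RNA was sequenced from C57BL/6 thymus, from cells negative for DAPI, CD45 and Ly51, positive for EpCAM, and high (mTEChi) or low (mTEClo) for MHC class II. Adult mice of 4 to 6 weeks gave mTEChi of WT (n = 7) and AireKO (n = 4) and mTEClo of WT (n = 8) and AireKO (n = 4). AireKO libraries came from males alone and WT libraries from both sexes. In both fractions WT libraries are of 4 to 5 weeks and AireKO libraries of 5 to 6 weeks, so that age and genotype are partly confounded. Neonates of 1 to 6 days gave 5 mTEChi libraries of Ctrl and 3 each of EEDcKO, AireKO and AireEEDdKO, besides 3 mTEClo libraries of Ctrl, 4 of EEDcKO and 3 of AireEEDdKO, and mTEClo of neonatal AireKO was not analysed here. In EEDcKO and AireEEDdKO mice the floxed Eed gene was deleted by Foxn1-Cre, which acts in thymic epithelium, and AireEEDdKO mice lack Aire as well. Of the 47 libraries, 9 are labelled as pools of male and female animals. The study describes its neonatal mTEChi data points as single mice, although some of those libraries carry the pool label, and for the other libraries no source used here ties a library to an animal, so that there the p-values measure a spread between libraries that may be technical. These are bulk libraries, in which fewer cells of a type and less RNA per cell cannot be told apart.

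Levels are given as CPM, the count of a gene scaled to a fixed library total, after scaling by the trimmed mean of M values (TMM). A gene was called changed at an adjusted p under 0.05 (edgeR's quasi-likelihood test, Benjamini-Hochberg over all tested genes) together with a change of at least 2-fold, and differences are log2 fold changes ± SE. The 23 adult libraries hold 1602125 to 3938588 counts and the 24 neonatal ones 1578579 to 4817418, so that a gene at a few CPM rests on a handful of reads. Where a group held 0 counts, the fold is given as a lower bound against 3 counts over that group, and bounds and intervals cover counting error only. Statements that groups did not overlap describe the values and are not a test. The share of all tested genes without overlap was not determined, and groups this small can separate by chance. In the adult table, 6 libraries held 0 mitochondrial counts, namely all 4 of mTEChi AireKO and replicates 3 and 4 of mTEClo AireKO, while the other 17 held at least 6178. In adult mTEChi the AireKO genotype and this kind of library cannot be told apart. A fit with the kind of library as a term takes that term from mTEClo AireKO alone, where both kinds occur. There replicates 1 and 2, with mitochondrial counts, are of 5 weeks and replicates 3 and 4, without them, of 6 weeks. Library kind and age thus cannot be told apart in that group, neither in this fit nor within the libraries with mitochondrial counts.

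The targeted genes check the labels. In adult mTEChi, Aire stood at 818 ± 56 CPM in the 7 WT and at 29.3 ± 11.6 CPM in the 4 AireKO libraries (mean ± SD). In neonatal mTEChi it stood at 619 ± 154 CPM in Ctrl, 70.6 ± 38.7 CPM in AireKO, 821 ± 236 CPM in EEDcKO and 21.6 ± 11.2 CPM in AireEEDdKO. Eed was 29.1 ± 7.93 CPM in neonatal mTEChi Ctrl and 14.8 ± 4.63 CPM in EEDcKO (edgeR adjusted p = 0.0014), and 24.2 ± 1.43 against 15.2 ± 1.12 CPM in mTEClo, where the change stayed under 2-fold. The summed level of 10 mTEC markers lay between 1970 and 5170 CPM in every neonatal group and between 2110 and 4400 CPM in every adult group, and the defining marker Epcam was present in all groups.

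The promoters of these genes differ in their density of CpG dinucleotides, a feature of promoters that PRC2 occupies. The 250 bases before the annotated start are printed for 4 genes that the results below turn on, a pair rich in CpGs and a pair with fewer, with CpG dinucleotides in capitals (RefSeq, GRCm38.p6, minus strand for Neurod1, Sst and Avp, plus strand for Chgb).
Neurod1: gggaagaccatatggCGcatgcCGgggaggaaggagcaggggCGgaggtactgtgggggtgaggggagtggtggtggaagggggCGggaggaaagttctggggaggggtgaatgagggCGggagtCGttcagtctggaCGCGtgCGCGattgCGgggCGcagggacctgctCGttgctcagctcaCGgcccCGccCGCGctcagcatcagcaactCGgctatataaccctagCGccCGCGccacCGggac
Chgb: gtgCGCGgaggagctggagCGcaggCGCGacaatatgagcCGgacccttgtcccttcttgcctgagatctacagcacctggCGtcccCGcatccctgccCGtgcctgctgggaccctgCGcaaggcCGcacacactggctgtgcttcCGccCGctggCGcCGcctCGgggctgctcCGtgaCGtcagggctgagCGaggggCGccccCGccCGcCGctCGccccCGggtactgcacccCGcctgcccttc
Sst: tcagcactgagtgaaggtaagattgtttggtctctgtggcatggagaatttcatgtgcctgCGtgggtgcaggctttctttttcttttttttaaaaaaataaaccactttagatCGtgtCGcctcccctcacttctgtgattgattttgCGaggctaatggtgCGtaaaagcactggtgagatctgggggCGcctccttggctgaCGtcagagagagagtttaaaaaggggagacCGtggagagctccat
Avp: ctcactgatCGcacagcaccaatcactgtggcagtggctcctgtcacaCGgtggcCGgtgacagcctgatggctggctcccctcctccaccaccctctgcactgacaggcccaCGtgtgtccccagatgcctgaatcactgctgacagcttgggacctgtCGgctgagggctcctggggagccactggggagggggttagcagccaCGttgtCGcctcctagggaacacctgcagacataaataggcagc
These windows are chr2:79456637-79456886 for Neurod1, chr2:132781392-132781641 for Chgb, chr16:23890845-23891094 for Sst and chr2:130582589-130582838 for Avp. They hold for the RefSeq starts. By the gene bounds used in the next paragraph, the Chgb window lies inside its gene, and the Neurod1 and Sst windows reach into theirs. Neurod1 held 22 CpGs and Chgb 26, more than 85.2% and 90.4% of the 32851 windows of 27025 genes, whose median was 6. Chga held 16. Sst held 8, Gcg and Avp 7 each, Iapp 3, and the 4 windows of Ghrl 1 or 2. Of the 10 genes 8 had an entry, and Insm1 and Ins2 had none. The cAMP response element TGACGTCA, searched on both strands, lay 72 bases before the start of Chgb and 48 bases before the start of Sst and in none of the other windows. It occurs in 1.55% of all windows. TATAAA, on either strand, was found in the Gcg window alone, against 12.4% of all windows.

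The genes lie on 5 chromosomes, and 5 of them on chromosome 2 of GRCm38. Of the 10 genes 3 overlap the bounds of another annotated gene, and reads were counted without regard to strand. Whether exons overlap was not examined, so an effect on the counts of these 3 genes is not known. Neurod1 (chr2:79452521-79456751) lies inside Cerkl on the same strand and overlaps the noncoding Gm26755 on the other. Iapp (chr6:142298423-142303961) lies inside Slco1a5, which runs the other way, and Ghrl (chr6:113716119-113719880) overlaps the antisense RNA Gm26982 and Gm44033.

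In mTEChi with Aire intact, all 10 genes were transcribed, at levels far apart. Per kilobase of exon, Iapp stood highest in adult WT with 48.9 ± 13.9 CPM per kb (SD, n = 7), followed by Insm1 with 46.9 ± 9.52 and Sst with 39.0 ± 9.93, and these neighbours differed by less than their SD. Gcg (15.9 ± 4.32) and Chga (14.9 ± 2.89) came next and also differed by less than their SD. Ins2, Avp, Ghrl and Chgb lay between 8.10 and 3.88 CPM per kb, and Neurod1 was last with 1.12 ± 0.55. In neonatal Ctrl the order began with Iapp at 82.4 ± 12.4 CPM per kb (n = 5), Sst at 44.9 ± 11.3 and Insm1 at 37.8 ± 11.1, and ended with Avp at 1.77 ± 1.61 and Neurod1 at 0.581 ± 0.207. The 2 tables were scaled apart, so adult and neonatal levels are not compared by test.

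**Figure D1:**
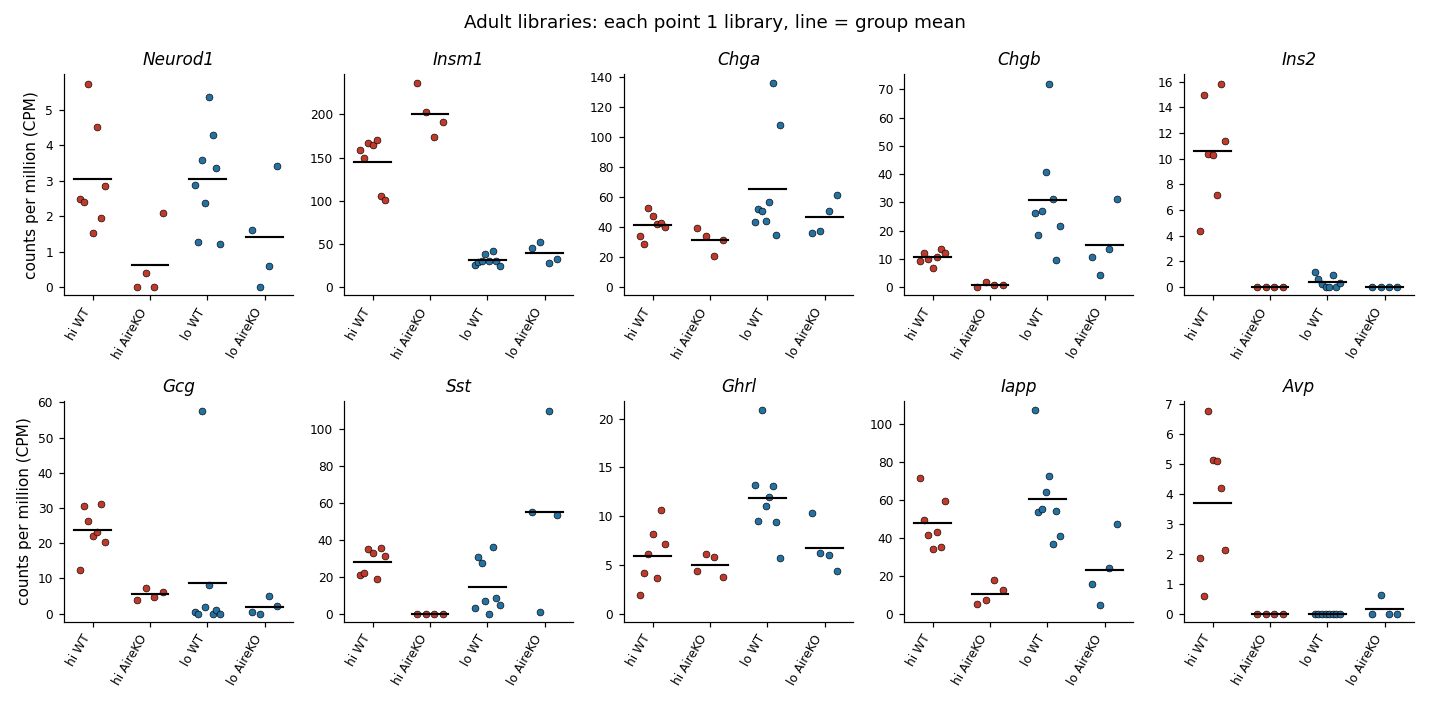
Level of each of the 10 genes in each adult library, in CPM on a linear axis that differs between panels, by fraction (hi, lo) and genotype, with 1 point per library and a line at the group mean. Ins2, Sst and Avp were at 0 in all 4 mTEChi AireKO libraries, while Insm1 was higher there than in any mTEChi WT library.

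In adult mTEChi without Aire 7 of the 10 genes fell and none rose, while Insm1, Chga and Ghrl were not called, where 23.4% of the 19310 tested genes were called, 3428 of them lower and 1087 higher. The median difference of the 10 genes was -2.20, with genes at 0 set at their bound, against -0.015 over all genes.

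Neurod1, a basic helix-loop-helix factor of endocrine and neuronal differentiation, ran from 1.51 to 5.71 CPM with a median of 2.48 CPM in 7 WT libraries, and read 0, 0.409, 0 and 2.09 CPM in the AireKO libraries. Only replicate 4 of AireKO reached into the WT range. The difference was -2.29 ± 0.71 (edgeR adjusted p = 0.008), and -4.16 without that replicate. Insm1, a zinc finger repressor that endocrine cells need to differentiate, went the other way, from 101 to 170 CPM with a median of 159 CPM in WT to 236, 203, 174 and 191 CPM in AireKO. The groups did not overlap, but the difference of 0.47 ± 0.15 (edgeR adjusted p = 0.0093) stayed under the 2-fold limit. With the kind of library as a term it came to 1.16 (edgeR adjusted p = 0.0031), which passes that limit.

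The granins split. Chga, the most abundant protein of many endocrine granules, ran from 28.8 to 52.8 CPM in WT and from 20.9 to 39.0 CPM in AireKO, a difference of -0.42 ± 0.30 (edgeR adjusted p = 0.24) that was not called. Its paralog Chgb ran from 6.64 to 13.6 CPM with a median of 10.8 CPM in WT and read 0, 1.64, 0.685 and 0.835 CPM in AireKO. The groups were far apart, and Chgb fell by 3.66 on the log2 scale (SE 0.76, edgeR adjusted p = 0.00019).

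Among the islet and gut hormones, Ins2, which encodes insulin, ran from 4.34 to 15.8 CPM with a median of 10.4 CPM in WT and was at 0 in all 4 AireKO libraries. That is at least 35.9-fold lower (edgeR adjusted p = 1e-07). Sst, which encodes the inhibitory hormone somatostatin, ran from 18.9 to 35.8 CPM with a median of 31.4 CPM in WT and was likewise at 0 in all AireKO libraries, at least 96.8-fold lower (edgeR adjusted p = 0.00021). Both genes thus went from detection in every WT library to none in AireKO.

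Gcg, which encodes glucagon and the glucagon-like peptides, kept a low level. It ran from 12.4 to 31.0 CPM with a median of 23.1 CPM in WT and read 3.95, 7.37, 4.79 and 6.27 CPM in AireKO, without overlap. The difference was -2.09 ± 0.88 (edgeR adjusted p = 0.046), and the call failed when any 1 of 10 of the 11 libraries was left out (adjusted p 0.051 to 0.099), all but WT replicate 1. With age in weeks as a term (-1.46, adjusted p = 0.22) and with DESeq2 (-2.13, adjusted p = 0.14) Gcg was not called either.

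Iapp, the amylin gene co-expressed with insulin in beta cells, ran from 34.1 to 71.2 CPM with a median of 42.9 CPM in WT and read 4.83, 6.96, 17.8 and 12.5 CPM in AireKO. It fell by 2.11 on the log2 scale (SE 0.39, edgeR adjusted p = 4.6e-05). Ghrl, the gene of the stomach hormone ghrelin, ran from 1.86 to 10.6 CPM in WT and from 3.76 to 6.14 CPM in AireKO. The AireKO values lay inside the WT range, and the difference was -0.30 ± 0.37 (edgeR adjusted p = 0.5).

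Avp, the vasopressin gene of hypothalamic neurons, ran from 0.600 to 6.78 CPM with a median of 4.20 CPM in WT and was at 0 in all AireKO libraries, at least 13.7-fold lower (edgeR adjusted p = 6.3e-05). With the kind of library as a term in the fit, Neurod1 (-3.52, edgeR adjusted p = 0.037), Chgb (-5.20, adjusted p = 0.00021), Iapp (-3.89, adjusted p = 2.5e-05) and Sst (adjusted p = 0.00038) kept their call. Gcg lost it although its difference was larger (-5.50, adjusted p = 0.18), as did Ins2 and Avp (adjusted p = 1 for both), whose fitted values rest on a group at 0 counts. In the male libraries alone 5 genes were called, and Neurod1 and Avp did not pass the filter on low counts there. The summed level of 8 thymocyte markers moved with the genotype, being at least 82.1 CPM in every WT library and at most 57.7 CPM in every AireKO library, with none of the 8 at 0 in all AireKO libraries. Of 5 tested thymocyte markers 4 fell, while Cd4 ran from 22.9 to 29.4 CPM in WT and from 24.3 to 33.8 CPM in AireKO. Of 7 tested markers of mesenchyme and endothelium 4 fell, Col1a1 from 116 ± 47.6 to 0.912 ± 0.432 CPM. Dcn rose, from 25.2 to 40.2 CPM in WT to 59.2 to 94 CPM in AireKO, and Pdgfrb overlapped (79.2 to 130 and 96.5 to 125 CPM). The 8 markers summed to a median of 310 CPM (222 to 386) with Aire and 217 CPM (211 to 222) without. Whether whole cell types changed, and their part in the hormone gene differences, was not tested.

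Hormone genes outside this set were mostly lower as well. These lists were drawn up with earlier results of these data known. Of 16 other gut and islet hormone genes, 13 could be tested and 10 fell, with a median of -4.68 against -0.015 over all genes. They included Nts (neurotensin), 49.2 ± 8.32 CPM in WT and 0.11 ± 0.219 CPM in AireKO, Gal (galanin), 42.8 ± 9.43 against 0.188 ± 0.219 CPM, and Vip, 19.3 ± 6.18 CPM against 0 in all libraries. Of 14 other hypothalamic and pituitary hormone genes 8 could be tested, of which 7 fell and 1 rose, with a median of -3.22. Pomc, the precursor of ACTH and endorphin, fell from 57.0 ± 9.72 to 4.33 ± 2.53 CPM. Of 17 genes that make and fill granules 4 fell and none rose, a share near the 23.4% called in either direction among all tested genes (3428 of 19310 lower). Among the 4 were Scg2, at 18.9 ± 6.11 CPM in WT and 0 in AireKO, and the prohormone convertase gene Pcsk2, from 13.4 ± 4.42 to 1.94 ± 1.01 CPM. Of 12 tested endocrine transcription factor genes 3 fell, namely Lmx1a, Neurod2 and Foxa2, and none rose, which is near that share called in either direction too, with a list median of -0.51.

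In adult mTEClo Aire itself is low even in WT (69.2 ± 33.4 CPM, n = 8), and 2 of the 10 genes were called between AireKO and WT, where 8.30% of all tested genes were. Sst was higher in AireKO. It ran from 0 to 36.0 CPM with a median of 7.74 CPM in 8 WT libraries and read 55.2, 0.626, 110 and 53.7 CPM in AireKO, so that 3 of 4 libraries lay above every WT library and the other near the bottom. The difference was 2.00 ± 0.57 (edgeR adjusted p = 0.011), and the call was lost without AireKO replicate 3 (1.42, adjusted p = 0.12), within the libraries that hold mitochondrial counts (1.04, adjusted p = 0.37), with DESeq2 (1.93, adjusted p = 0.12), in male libraries (1.28, adjusted p = 0.17) and with age in weeks as a term (1.09, adjusted p = 0.44).

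Iapp fell in adult mTEClo AireKO. It ran from 36.9 to 107 CPM with a median of 54.6 CPM in WT and read 15.7, 4.38, 23.8 and 47.4 CPM in AireKO, where 3 of 4 libraries lay under the WT range. The difference was -1.24 ± 0.33 (edgeR adjusted p = 0.0062). Within the libraries with mitochondrial counts it was -2.50, without AireKO replicate 4 it was -1.90, and without AireKO replicate 2 it was -0.98 and under the 2-fold limit. The call also failed with age in weeks as a term (adjusted p = 0.11) and in male libraries (adjusted p = 0.08). Chgb, not called over all libraries (-0.93 ± 0.37, edgeR adjusted p = 0.066), was called within the libraries with mitochondrial counts (-2.01, adjusted p = 0.014), without WT replicate 7 (-1.08, adjusted p = 0.022) and without AireKO replicate 4 (-1.64, adjusted p = 0.0059). Ghrl was -0.91 ± 0.32 (edgeR adjusted p = 0.038) and under 2-fold, and passed that limit without WT replicate 8 (-1.02) or AireKO replicate 1 (-1.16). Neurod1 (-0.90 ± 0.54, edgeR adjusted p = 0.23) was called without AireKO replicate 4 (-2.05, adjusted p = 0.041). Insm1, Chga, Ins2 and Gcg did not pass the test, and Avp held 1 count in both groups together. In male libraries Gcg (-3.06, adjusted p = 0.04) and Ghrl (-1.24, adjusted p = 0.024) were called, as was Chga with age in weeks as a term (-1.09, adjusted p = 0.02). The 5 cortical epithelium markers had a median sum of 455 CPM (at most 513) in WT libraries of this fraction, with every AireKO library above that and a median of 606 CPM. In mTEChi their sum was at most 575 CPM with Aire and at least 596 CPM without, and their part in these differences was not tested.

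Sst and Chgb responded to loss of Aire differently in the 2 adult fractions, by a test of the difference itself. For these 2 of the 10 genes the change with Aire was not the same in both fractions, where 13.7% of all tested genes were called. For Sst (edgeR adjusted p = 7.7e-05), at 0 in one AireKO fraction and highest in the other, no difference is given because a group held 0 counts. For Chgb the effect was lower in mTEChi than in mTEClo by 2.73 ± 0.91 on the log2 scale (edgeR adjusted p = 0.028), and this failed without mTEClo AireKO replicate 4 (-2.03, adjusted p = 0.11) or without mTEChi AireKO replicate 1, 3 or 4 (adjusted p = 0.074, 0.058 and 0.053). Avp (edgeR adjusted p = 0.053) was called without mTEChi WT replicate 2 (adjusted p = 0.033), and Iapp (-0.87 ± 0.51, edgeR adjusted p = 0.22) with the kind of library as a term (-1.37, adjusted p = 0.025).

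Between the fractions of adult WT, 4 of the 10 genes were called, against 36.1% of all tested genes, and 3 of them were higher in mTEChi. Insm1 rose from a range of 24.9 to 41.8 CPM in mTEClo to 101 to 170 CPM in mTEChi, a difference of 2.20 ± 0.14 (edgeR adjusted p = 3.4e-14). Ins2, at 0 in 3 of 8 mTEClo libraries and at most 1.15 CPM in the others, was higher in mTEChi by 4.84 ± 0.43 (edgeR adjusted p = 8.2e-10). Avp had no count in any of the 8 mTEClo libraries, and was at least 33.4-fold higher in mTEChi (edgeR adjusted p = 4.6e-07). None of these 3 genes overlapped between the fractions. Thymocyte markers summed to 27.9 to 40.7 CPM in mTEClo WT and 82.1 to 112 CPM in mTEChi WT, and mesenchyme and endothelium markers to 57.2 to 91.1 CPM and 222 to 386 CPM, and their part was not tested. Of the 7 mesenchyme and endothelium markers tested, 5 were called higher in mTEChi and 1 lower.

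Chgb went against them. It ran from 9.74 to 71.8 CPM with a median of 26.6 CPM in mTEClo WT, and was lower in mTEChi by 1.57 ± 0.33 on the log2 scale (edgeR adjusted p = 0.00012), with some overlap. Chga (-0.67 ± 0.23, edgeR adjusted p = 0.011) and Ghrl (-0.93 ± 0.26, edgeR adjusted p = 0.0024) were also lower in mTEChi, but under the 2-fold limit. Ghrl passed it without mTEClo WT replicate 7 or 8 and without mTEChi WT replicate 4 or 6 (-1.01 to -1.14).

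Gcg and Sst were uneven in mTEClo WT. Gcg was at 0 in 3 of 8 libraries, between 0.574 and 8.15 CPM in 4, and 57.6 CPM in replicate 3. Over all libraries the Gcg difference between mTEChi and mTEClo was 1.27 ± 0.62 (edgeR adjusted p = 0.067), and without that replicate it was 3.54 (adjusted p = 1.3e-07). Sst in mTEClo WT ran from 0 to 36.0 CPM, across the whole mTEChi range of 18.9 to 35.8 CPM, and the difference of 1.00 ± 0.53 (edgeR adjusted p = 0.096) was not called over all libraries, but was without mTEClo WT replicate 6 (1.38, adjusted p = 0.028). Iapp (-0.35 ± 0.26) and Neurod1 (-0.03 ± 0.40) did not pass the test.

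In adult AireKO mice 4 of the 10 genes were called between the fractions, against 35.2% of all tested genes. Insm1 was again higher in mTEChi (2.40 ± 0.19, edgeR adjusted p = 1e-11). Sst, absent from mTEChi, was at least 213-fold lower there than in mTEClo (edgeR adjusted p = 1.8e-05). Chgb, at 10.8, 4.38, 13.4 and 31.3 CPM in mTEClo AireKO and at most 1.64 CPM in mTEChi AireKO, was lower by 4.30 ± 0.76 on the log2 scale (edgeR adjusted p = 1.7e-05), and by 3.61 without mTEClo replicate 4. Iapp was lower in mTEChi by 1.23 ± 0.44 (edgeR adjusted p = 0.018), which did not hold without mTEClo replicate 4 (-0.58, adjusted p = 0.28), mTEChi replicate 1 (-1.01, adjusted p = 0.066) or mTEChi replicate 2 (-1.07, adjusted p = 0.058). Neurod1, not called here (-1.41 ± 0.86), was called without mTEChi replicate 4 (-3.29, adjusted p = 0.018). Thymocyte markers summed to at most 30.3 CPM in mTEClo AireKO and at least 43.5 CPM in mTEChi AireKO, and mesenchyme and endothelium markers to at most 141 CPM and at least 211 CPM, and their part was not tested. Of the 7 mesenchyme and endothelium markers tested, 3 were called higher in mTEChi and 2 lower. This comparison and those above share their libraries and are not independent of each other.

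**Figure D2:**
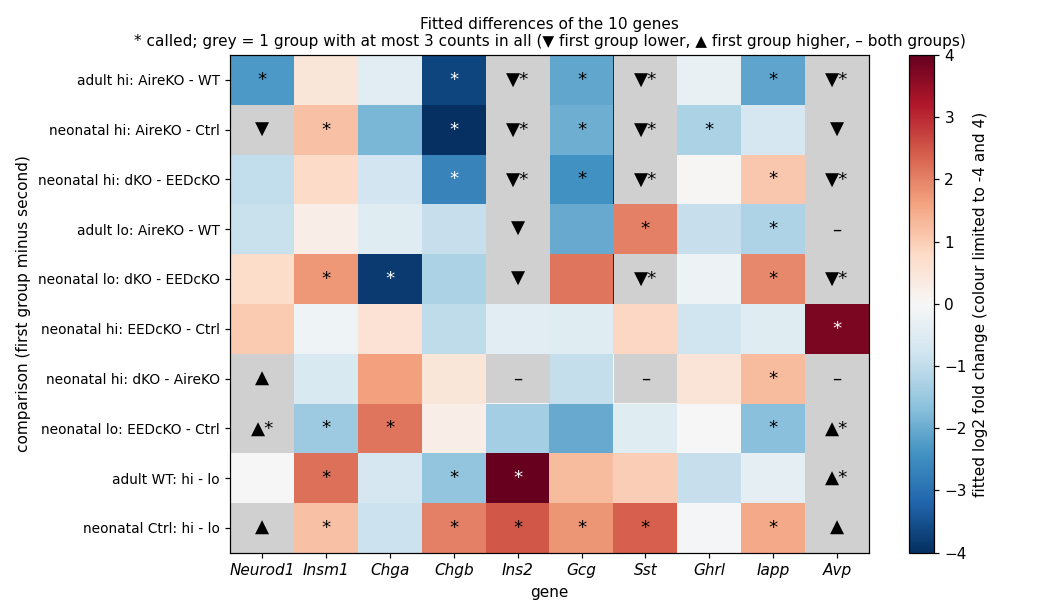
Fitted log2 fold changes of the 10 genes (columns) in 10 comparisons (rows, first group minus second), with the colour limited to -4 and 4, a star for a call, dKO for AireEEDdKO, and grey cells where a group held at most 3 counts in all, in which arrows give the direction. The 3 mTEChi rows that set libraries without Aire against libraries with Aire are blue or carry downward arrows for Chgb, Ins2, Gcg and Sst and are red for Insm1.

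In neonates the fractions of Ctrl mice differed for 6 of the 10 genes, all higher in mTEChi, where 20.7% of tested genes were called. Ins2 read 1.35, 1.75 and 0.563 CPM in mTEClo and 9.56, 6.35, 8.80, 7.66 and 5.39 CPM in mTEChi, higher by 2.50 ± 0.50 (edgeR adjusted p = 0.0012). Sst read 6.42, 5.26 and 6.75 CPM in mTEClo and 29.3, 42.7, 22.3, 29.0 and 38.4 CPM in mTEChi, higher by 2.39 ± 0.45 (edgeR adjusted p = 0.00051). In both genes every mTEChi library lay above every mTEClo library.

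Iapp (1.50 ± 0.38, edgeR adjusted p = 0.004), Chgb (2.02 ± 0.60, adjusted p = 0.012), Gcg (1.77 ± 0.61, adjusted p = 0.027) and Insm1 (1.16 ± 0.39, adjusted p = 0.024) were also higher in neonatal mTEChi Ctrl, without overlap. Of these, Iapp kept its call when any single library was left out. The Chgb call was lost without mTEClo replicate 3 (adjusted p = 0.06), the Gcg call without any of the 3 mTEClo libraries (adjusted p 0.068 to 0.084), and the Insm1 call without mTEClo replicate 2 (adjusted p = 0.07) or 3 (adjusted p = 0.096) or mTEChi replicate 2 (adjusted p = 0.057). Libraries of mTEClo Ctrl span 1 to 3 days and those of mTEChi Ctrl 1 to 6 days, and with age class as a term Insm1 was not called (0.91, adjusted p = 0.071). Chgb thus stood higher in mTEChi in neonates, at 9.56 to 20.1 CPM against 1.69 to 4.73 CPM, and higher in mTEClo in adults, a difference between ages that was not tested. The 5 cortical epithelium markers summed to 1880 to 2860 CPM in mTEClo Ctrl and 444 to 976 CPM in mTEChi Ctrl. Thymocyte markers (25.3 to 39.6 CPM against 93 to 111 CPM) and mesenchyme and endothelium markers (135 to 145 CPM against 269 to 338 CPM) were higher in mTEChi, as the 6 called genes were, and the part of these cells was not tested. Neurod1 and Avp held 1 and 2 counts in mTEClo Ctrl, and Chga and Ghrl were not called.

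**Figure D3:**
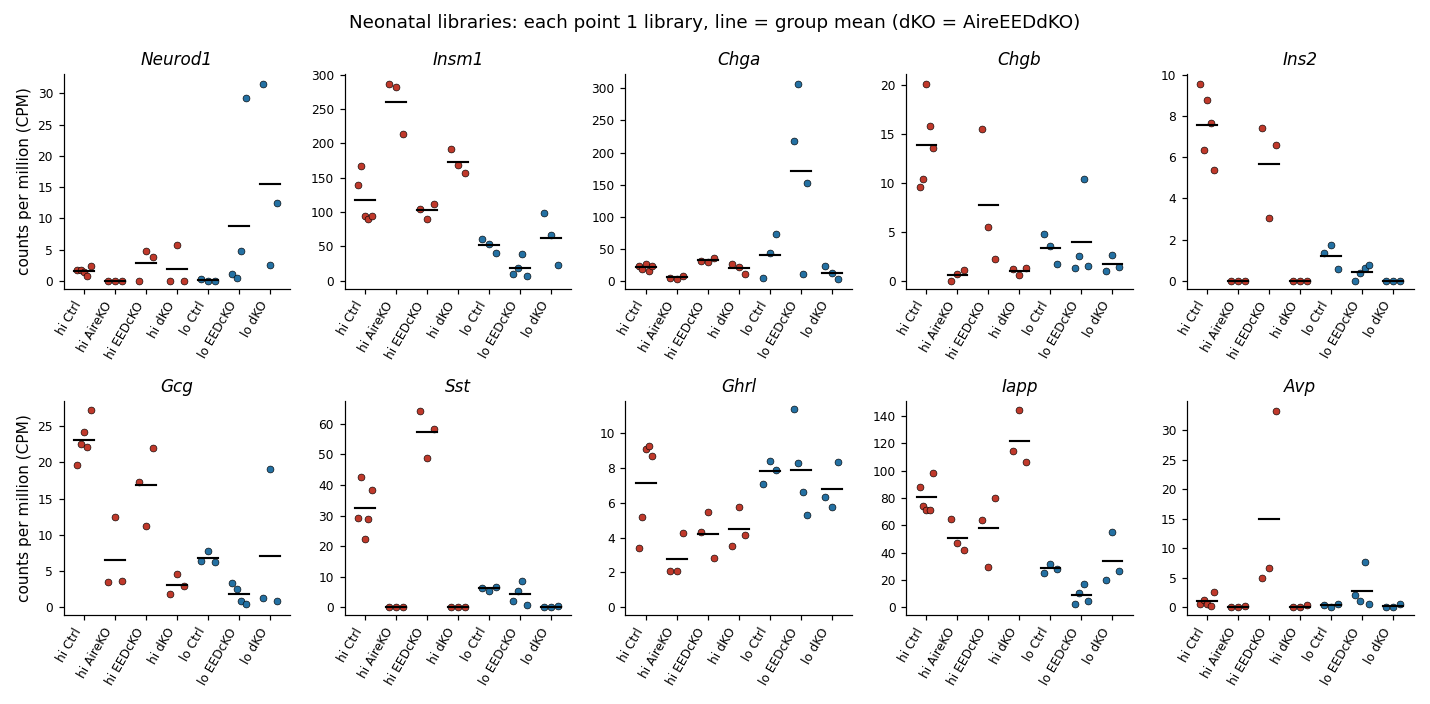
Level of each of the 10 genes in each neonatal library, in CPM on a linear axis that differs between panels, by fraction (hi, lo) and genotype, with 1 point per library and a line at the group mean. Ins2 and Sst were at 0 in all 6 mTEChi libraries of AireKO and AireEEDdKO, and Avp was highest in mTEChi EEDcKO.

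Loss of Aire in neonatal mTEChi lowered 5 of the 10 genes and raised Insm1, where 16.4% of all tested genes were called. The median of the 10 differences was -2.24, or -1.89 with genes at 0 set at their bound, against 0.035 over all genes. Insm1 read 140, 167, 93.8, 90.6 and 94.8 CPM in Ctrl and 287, 282 and 214 CPM in AireKO, without overlap. The difference was 1.17 ± 0.35 (edgeR adjusted p = 0.017), lost without Ctrl replicate 3 (adjusted p = 0.066), AireKO replicate 1 (adjusted p = 0.056) or AireKO replicate 2 (adjusted p = 0.084), and under 2-fold (0.94) when libraries were scaled by their size alone.

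Neurod1 read 1.69, 1.73, 1.38, 0.792 and 2.34 CPM in Ctrl and was at 0 in all 3 AireKO libraries, at least 3.39-fold lower, yet it did not pass the test (edgeR adjusted p = 0.24). Chgb read 9.56, 10.4, 20.1, 15.8 and 13.6 CPM in Ctrl and 0, 0.689 and 1.13 CPM in AireKO. It fell by 4.16 on the log2 scale (SE 0.82, edgeR adjusted p = 0.00074), and by 5.19 without AireKO replicate 3. Chga, at 15.8 to 25.9 CPM in Ctrl and 4.8, 3.44 and 7.91 CPM in AireKO, did not overlap either, but its difference of -1.83 ± 0.92 (edgeR adjusted p = 0.14) was not called in the fit over all 7 groups. With only Ctrl and AireKO mTEChi in the fit it was called (-1.90, adjusted p = 8.5e-05), as it was with DESeq2 (-2.01, adjusted p = 0.046). In the mTEClo libraries, which share the fit, Chga ran from 3.24 to 307 CPM.

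Ins2 and Sst were at 0 in all 3 neonatal AireKO libraries, as in the adult, at least 15.8-fold (edgeR adjusted p = 5.5e-05) and at least 68.0-fold (adjusted p = 6.1e-06) lower than in Ctrl. Gcg read 19.7, 22.5, 24.2, 22.2 and 27.2 CPM in Ctrl and 3.43, 12.4 and 3.67 CPM in AireKO, lower by 1.94 ± 0.65 on the log2 scale (edgeR adjusted p = 0.029). Ghrl read 3.38, 5.20, 9.08, 9.24 and 8.66 CPM in Ctrl and 2.06, 2.07 and 4.24 CPM in AireKO, lower by 1.26 ± 0.38 (edgeR adjusted p = 0.017) with 1 library of each group overlapping.

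These last calls were less stable than those of Ins2 and Sst. The Gcg call was lost without Ctrl replicate 5 (adjusted p = 0.052), AireKO replicate 1 (0.11) or AireKO replicate 3 (0.16), and the difference was -2.74 without AireKO replicate 2. The Ghrl call was lost without AireKO replicate 1 (adjusted p = 0.073) or 2 (0.063). Ctrl libraries span 1 to 6 days and AireKO libraries 4 to 6 days, and with age class as a term in the fit Insm1 (0.86, adjusted p = 0.11), Gcg (-1.68, adjusted p = 0.1) and Ghrl (-0.72, adjusted p = 0.2) were not called. Iapp was at 70.8 to 97.9 CPM in Ctrl and at 64.4, 46.8 and 41.5 CPM in AireKO, a difference of -0.68 ± 0.36 (edgeR adjusted p = 0.17). Avp, with 17 counts in Ctrl and 1 in AireKO, was not called (adjusted p = 0.27).

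Other hormone genes were mostly lower in neonatal AireKO as well. Of the 13 other gut and islet hormone genes tested 10 fell and none rose, with a median of -4.01, or -3.77 with genes at 0 set at their bound, against 0.035 over all genes. Nts went from 64.7 ± 3.15 to 0.875 ± 0.434 CPM. Of 8 hypothalamic and pituitary hormone genes 5 fell, with a median of -3.18, or -2.63 with genes at 0 set at their bound, Pomc among them, from 46.7 ± 7.67 to 1.66 ± 1.55 CPM. Beside the 16.4% called among all tested genes, 5 of 16 granule genes fell and 1 rose, and 4 of 13 transcription factor genes fell and 1 rose, the riser being Mafa, a factor of beta cells, at 19.5 ± 2.88 CPM in AireKO and 7.53 ± 2.82 CPM in Ctrl. Of 8 mesenchyme and endothelium markers 4 fell, Col1a1 from 90.6 ± 18.4 to 0.553 ± 0.727 CPM, and Dcn rose, with sums of 269 to 338 CPM in Ctrl and 239 to 320 CPM in AireKO. Pdgfra was at 0 in all AireKO libraries. Thymocyte markers summed to 93 to 111 CPM in Ctrl and 54.1 to 88.8 CPM in AireKO, and the part of these cells was not tested.

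**Figure D4:**
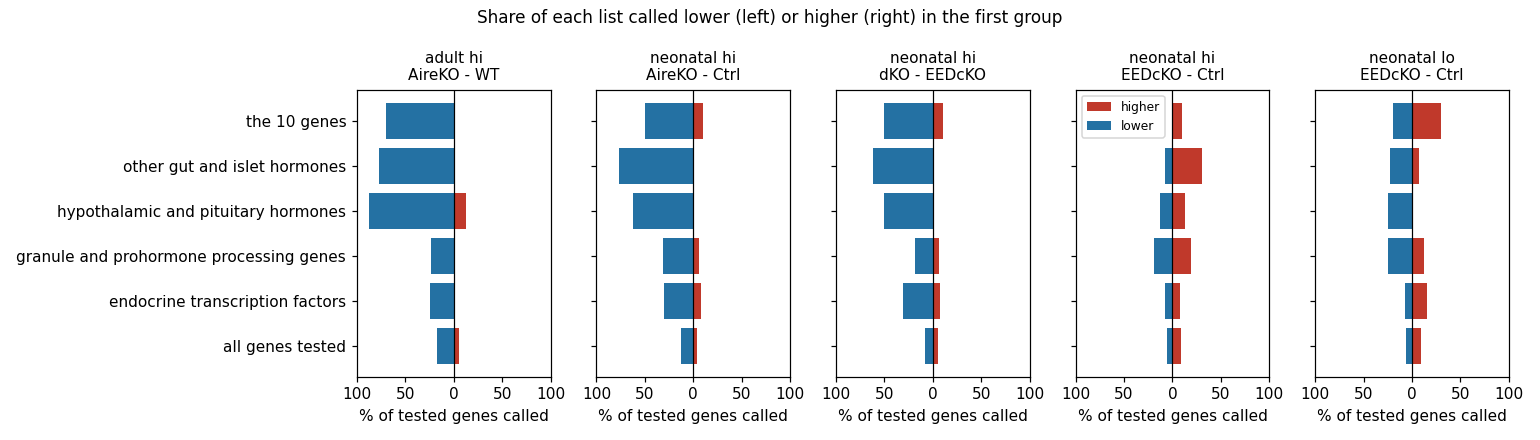
Percent of the tested genes of each list that were called lower (left, blue) or higher (right, red) in the first group of 5 comparisons, with all tested genes at the bottom and dKO for AireEEDdKO. In mTEChi AireKO 10 of 13 gut and islet hormone genes were called lower in adults and in neonates, against 4 of 17 and 5 of 16 granule genes.

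With Eed alone deleted, 1 of the 10 genes, Avp, was called in neonatal mTEChi, where 13.9% of all tested genes were. It read 0.563, 1.16, 0.550, 0.264 and 2.58 CPM in Ctrl and 4.96, 6.56 and 33.3 CPM in EEDcKO, so that every EEDcKO library lay above every Ctrl library. It rose by 3.76 ± 0.73 on the log2 scale (edgeR adjusted p = 0.00046), by 2.40 without EEDcKO replicate 3 (adjusted p = 0.025) and by 4.66 without Ctrl replicate 5.

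Sst read 64.4, 48.8 and 58.5 CPM in EEDcKO, above the 22.3 to 42.7 CPM of Ctrl without overlap, but the difference of 0.82 ± 0.35 (edgeR adjusted p = 0.077) did not pass the test. Chga was likewise higher without overlap, at 31.0, 29.1 and 35.9 CPM against 15.8 to 25.9 CPM, with a difference of 0.59 ± 0.69 (edgeR adjusted p = 0.54). Chgb read 15.5, 5.47 and 2.20 CPM in EEDcKO, and its difference of -1.02 ± 0.55 (edgeR adjusted p = 0.16) was called only without EEDcKO replicate 1 (-1.82, adjusted p = 0.023). Ghrl was lower by 0.79 ± 0.34 (edgeR adjusted p = 0.078), and Neurod1, Insm1, Ins2, Gcg and Iapp did not pass the test either. A summed level of 8 markers of mesenchyme and endothelium moved with the genotype, from 269 to 338 CPM in Ctrl to 508 to 787 CPM in EEDcKO, none of them at 0 in all libraries, and that of 5 cortical epithelium markers from 444 to 976 CPM to 290 to 377 CPM. Of the 8 mesenchyme and endothelium markers 3 were called higher and 1 lower. Pecam1 ran from 15.6 to 27.5 CPM in Ctrl and from 6.92 to 13 CPM in EEDcKO. The part of the cells behind these markers in the Avp difference was not tested.

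Without Aire, the deletion of Eed changed 1 of the 10 genes in mTEChi, where 9.47% of all tested genes were called. Iapp read 64.4, 46.8 and 41.5 CPM in AireKO and 114, 144 and 106 CPM in AireEEDdKO, without overlap. It rose by 1.26 ± 0.40 on the log2 scale (edgeR adjusted p = 0.03), not called without AireKO replicate 2 (adjusted p = 0.11) or 3 (0.13) or AireEEDdKO replicate 1 (0.059) or 2 (0.097). Ins2 and Sst were at 0 in both groups, and Avp held 1 count in each. Chga, at 25.9, 21.4 and 10.9 CPM in AireEEDdKO against 3.44 to 7.91 CPM in AireKO, did not overlap but was not called in the fit over all groups (1.64 ± 1.03, edgeR adjusted p = 0.31). It was called with only these 2 groups in the fit (1.68, adjusted p = 0.015). Insm1 read 287, 282 and 214 CPM in AireKO and 192, 168 and 157 CPM in AireEEDdKO, without overlap, and was not called. Neurod1, Chgb, Gcg and Ghrl were not called either. Mesenchyme and endothelium markers summed to 239 to 320 CPM in AireKO and 376 to 658 CPM in AireEEDdKO, and cortical epithelium markers to 575 to 768 CPM and 357 to 487 CPM, and their part in the Iapp difference was not tested.

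On the EEDcKO background, loss of Aire lowered 5 genes in mTEChi and raised Iapp, where 13.3% of all tested genes were called. Avp, the gene that stood high in EEDcKO, read 0, 0 and 0.321 CPM in AireEEDdKO. From 144 counts against 1, its level was 101-fold lower, with a 95% counting interval of 17.8 to 4000 (edgeR adjusted p = 0.0011). Sst and Ins2, both at 0 in the 3 AireEEDdKO libraries, were at least 120-fold (edgeR adjusted p = 2.9e-06) and at least 11-fold (adjusted p = 0.00025) lower. These 3 calls held when any single library was left out (adjusted p at most 0.011).

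Gcg read 17.3, 11.2 and 22 CPM in EEDcKO and 1.77, 4.62 and 2.89 CPM in AireEEDdKO, lower by 2.43 ± 0.77 on the log2 scale (edgeR adjusted p = 0.026). Chgb was lower by 2.67 ± 0.86 (edgeR adjusted p = 0.028), at 1.18, 0.578 and 1.28 CPM. Iapp was higher by 1.08 ± 0.39 (edgeR adjusted p = 0.046). None of these 3 calls was stable. Gcg lost its call without EEDcKO replicate 3 or any of the 3 AireEEDdKO libraries (adjusted p 0.051 to 0.092) and with age class as a term (0.093), and Chgb without EEDcKO replicate 1 (-1.87, adjusted p = 0.12) or any of the 3 AireEEDdKO libraries (0.064 to 0.094). Iapp lost it without EEDcKO replicate 1 or 2 or any AireEEDdKO library (0.69 to 1.17, adjusted p 0.054 to 0.27), and with age class as a term, with DESeq2 and with both other scalings. Insm1 read 105, 90.3 and 112 CPM in EEDcKO and 192, 168 and 157 CPM in AireEEDdKO. Chga read 31, 29.1 and 35.9 CPM in EEDcKO and 25.9, 21.4 and 10.9 CPM in AireEEDdKO. Neither gene overlapped between the groups, and neither was called. Neurod1 and Ghrl were not called either.

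Whether the Aire effect differed between mTEChi with and without Eed was tested as an interaction. None of the 10 genes passed with edgeR's quasi-likelihood test or with DESeq2, against 1.25% of all tested genes with edgeR. An unadjusted edgeR p under 0.05 was found for 3306 of all 20196 tested genes and for 2 of the 10. The Aire effect on Iapp was -0.68 with Eed and 1.08 without, a difference of 1.76 ± 0.53 (edgeR adjusted p = 0.093). It passed with no filter on low counts (adjusted p = 0.0095) and with only the mTEChi groups in the fit (1.81, adjusted p = 0.016). Ghrl was the other gene, with 1.33 ± 0.57 (edgeR adjusted p = 0.24).

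In neonatal mTEClo the deletion of Eed changed 5 of the 10 genes, 3 higher and 2 lower, where 15.7% of all tested genes were called. Neurod1 rose from 1 count in the 3 Ctrl libraries to 1.01, 0.359, 4.69 and 29.3 CPM in EEDcKO. The ratio of levels was 74.8 with a counting interval of 13.2 to 2980 (edgeR adjusted p = 0.022), and most of the reads came from replicate 4. Insm1 fell, from 61.5, 53.0 and 39.9 CPM to 9.09, 19.0, 38.4 and 6.81 CPM, by 1.46 ± 0.42 on the log2 scale (edgeR adjusted p = 0.012). The 2 transcription factor genes thus went in opposite directions.

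Chga read 4.73, 43.8 and 72.6 CPM in mTEClo Ctrl and 218, 307, 10.4 and 152 CPM in EEDcKO, where 3 of 4 libraries lay above every Ctrl library. It rose by 2.13 ± 0.70 on the log2 scale (edgeR adjusted p = 0.024). Chgb, at 4.73, 3.51 and 1.69 CPM in Ctrl and 1.35, 2.51, 10.4 and 1.51 CPM in EEDcKO, was not called (0.28 ± 0.65). EEDcKO replicate 3 was thus lowest for Chga and highest for Chgb.

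Iapp fell from 25.0, 31.9 and 28.1 CPM to 2.36, 10.4, 16.8 and 4.8 CPM, by 1.66 ± 0.43 on the log2 scale (edgeR adjusted p = 0.0049), without overlap. Gcg read 6.42, 7.72 and 6.19 CPM in Ctrl and 3.37, 2.51, 0.853 and 0.505 CPM in EEDcKO, also without overlap, and just missed the call (-2.01 ± 0.77, edgeR adjusted p = 0.051). It was called without EEDcKO replicate 1 (adjusted p = 0.033) and with DESeq2 (adjusted p = 0.025). Avp, with 2 counts in Ctrl, read 2.02, 1.08, 7.68 and 0.505 CPM in EEDcKO, a ratio of 12.4 with a counting interval of 3.24 to 105 (edgeR adjusted p = 0.047). Sst, Ghrl and Ins2 did not pass the test.

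The Iapp call held when any single library was left out, with -2.30 without EEDcKO replicate 3. Insm1 lost its call without Ctrl replicate 1 (adjusted p = 0.054) and stood at -2.20 without EEDcKO replicate 3. Chga lost it without Ctrl replicate 1 (1.51, adjusted p = 0.13), Ctrl replicate 2 (adjusted p = 0.071) or EEDcKO replicate 2 (adjusted p = 0.079), and stood at 2.74 without Ctrl replicate 3. Neurod1 lost it without any Ctrl library (adjusted p 0.062 to 0.09) or without EEDcKO replicate 4 (adjusted p = 0.13), and Avp without any Ctrl library (0.077 to 0.18) or without EEDcKO replicate 3 (0.28). With only these 2 groups in the fit the Chga call was lost (adjusted p = 0.14). Libraries of mTEClo Ctrl span 1 to 3 days and those of EEDcKO 1 to 6 days, and with age class as a term Neurod1 (adjusted p = 0.12) and Avp (adjusted p = 0.066) were not called. EEDcKO replicates 1 and 2 are of 1 to 3 days, and replicates 3 and 4 of 4 to 6 days. The latter 2 also carry later sample numbers, as all mTEClo AireEEDdKO libraries do. In mTEClo age and this numbering cannot be told apart, also not by the age term.

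Summed markers of other cells moved with Eed in this fraction, though the mesenchyme and endothelium markers did not all go the same way. The summed level of 5 cortical epithelium markers was 1880 to 2860 CPM in mTEClo Ctrl and 377 to 852 CPM in EEDcKO, and that of 8 mesenchyme and endothelium markers was 135 to 145 CPM and 462 to 644 CPM. Of the 8 mesenchyme and endothelium markers 4 were called higher and 1 lower. Col1a2 ran from 7.37 to 10.7 CPM in Ctrl and from 135 to 144 CPM in EEDcKO. Pecam1 ran from 13.5 to 18.6 CPM in Ctrl and from 5.05 to 13.1 CPM in EEDcKO. None of the markers of the 2 lists was at 0 in all libraries of either group. Their part in the hormone gene differences was not tested.

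Between mTEClo of AireEEDdKO and EEDcKO, which share the Eed deletion, 5 genes were called, where 5.30% of all tested genes were. Chga read 22.4, 11.7 and 3.24 CPM in AireEEDdKO, lower by 3.82 ± 0.77 on the log2 scale (edgeR adjusted p = 0.0035), though the low EEDcKO replicate 3 at 10.4 CPM fell among these values. Sst, with 2 counts in AireEEDdKO, was lower by a ratio of 27.5 with a counting interval of 7.30 to 232 (edgeR adjusted p = 0.0043). Avp, with 2 counts as well, was lower by a ratio of 20.2 with an interval of 5.28 to 171 (edgeR adjusted p = 0.041).

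The other 2 genes rose. Insm1 read 98.4, 66.9 and 23.4 CPM in AireEEDdKO, higher than EEDcKO by 1.72 ± 0.41 (edgeR adjusted p = 0.011) with overlap, and Iapp read 19.6, 55.2 and 26.6 CPM, higher by 1.94 ± 0.41 (edgeR adjusted p = 0.0047) without overlap. The calls of Chga and Sst held when any 1 library was left out, with Chga at -4.48 without AireEEDdKO replicate 1. The Avp call was lost without EEDcKO replicate 1 (adjusted p = 0.058) or 3 (0.19) or AireEEDdKO replicate 1 (0.17) or 2 (0.18). That of Insm1 was lost without AireEEDdKO replicate 1 (1.27, adjusted p = 0.13) or 2 (adjusted p = 0.052), that of Iapp without AireEEDdKO replicate 2 (1.38, adjusted p = 0.074), and without EEDcKO replicate 3 they stood at 2.46 and 2.57. With only the 2 groups in the fit Chga, Iapp and Insm1 were not called (adjusted p = 0.14, 0.16 and 0.2), and Sst and Avp gave no value. Libraries of mTEClo AireEEDdKO span 4 to 6 days and those of EEDcKO 1 to 6 days, where only EEDcKO replicates 3 and 4 share the age class of AireEEDdKO. With age class as a term Avp was not called (adjusted p = 0.069). Gcg (2.14 ± 0.72, edgeR adjusted p = 0.069) was called without AireEEDdKO replicate 1 (adjusted p = 0.048) or 3 (adjusted p = 0.0072), and Ins2, at 0 in AireEEDdKO, without EEDcKO replicate 1 (adjusted p = 0.047). Neurod1 stood at 31.5, 2.46 and 12.5 CPM in AireEEDdKO, and its difference of 0.73 ± 0.88 (edgeR adjusted p = 0.67) did not pass the test. In AireEEDdKO mesenchyme and endothelium markers summed to 441 to 694 CPM, with 1 of 8 at 0, and cortical epithelium markers to 386 to 490 CPM, both overlapping the EEDcKO ranges.

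Between the fractions of EEDcKO mice 7 of the 10 genes were called, where 21.8% of all tested genes were, 6 of them higher in mTEChi. Sst (3.71 ± 0.42, edgeR adjusted p = 5.2e-06), Ins2 (3.40 ± 0.55, adjusted p = 0.00014), Gcg (3.30 ± 0.70, adjusted p = 0.00085), Iapp (2.67 ± 0.41, adjusted p = 3.5e-05), Insm1 (2.44 ± 0.41, adjusted p = 9.6e-05) and Avp (2.33 ± 0.67, adjusted p = 0.0089) were higher, and Chga was lower by 2.42 ± 0.71 (edgeR adjusted p = 0.0099). Leaving out mTEChi EEDcKO replicate 3 ended the Avp call (0.96, adjusted p = 0.33), and with only these 2 groups in the fit neither Avp (adjusted p = 0.07) nor Chga (adjusted p = 0.062) was called. Leaving out mTEClo EEDcKO replicate 3 raised Sst to 4.46, Iapp to 3.30, Insm1 to 3.17 and Avp to 3.68, and brought Chgb to a call (1.95, adjusted p = 0.011). Ghrl (-0.86 ± 0.35, edgeR adjusted p = 0.056) was called without mTEClo replicate 4 (-1.02, adjusted p = 0.033).

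In the interaction of Eed and fraction, 0 of the 10 genes passed with edgeR's quasi-likelihood test and with DESeq2, against 1.58% of all tested genes with edgeR. An unadjusted edgeR p under 0.05 was found for 3029 of all 20196 tested genes and for 3 of the 10. These were Insm1 (1.28 ± 0.56, edgeR adjusted p = 0.27), Sst (1.32 ± 0.62, adjusted p = 0.32) and Iapp (1.17 ± 0.55, adjusted p = 0.32). Insm1 passed without mTEClo EEDcKO replicate 3 (2.02, adjusted p = 0.033).

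In AireEEDdKO mice, 2 genes were called between the fractions, where 21.0% of all tested genes were. Iapp (1.82 ± 0.39, edgeR adjusted p = 0.00094) and Insm1 (1.46 ± 0.41, adjusted p = 0.0077) were higher in mTEChi, without overlap, and the Insm1 call was lost without mTEClo replicate 3 (1.06, adjusted p = 0.051). Neurod1 read 0, 5.78 and 0 CPM in mTEChi against 31.5, 2.46 and 12.5 CPM in mTEClo, a difference of -3.18 ± 1.27 (edgeR adjusted p = 0.053) that was called without mTEClo replicate 2 (adjusted p = 0.025) or mTEChi replicate 2 (adjusted p = 0.02). Insm1 was thus higher in mTEChi than in mTEClo in each of the 5 pairs of fractions, by 1.16 to 2.44 on the log2 scale.

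Genes whose level varied most like each member within groups were sought over the 23 adult and the 24 neonatal libraries, among 18545 genes tested in both tables, by the lower of the 2 correlations of deviations from the group mean. Iapp had the closest partners, AA467197 (r = 0.891 adult, 0.840 neonatal), Rptn (0.751 and 0.760) and Spink1 (0.782 and 0.734). Insm1 followed Slco5a1 (0.761 and 0.790), Tbx3 (0.711 and 0.753) and Zfp872 (0.737 and 0.705), and Ghrl followed Plcg1 (0.731 and 0.752), Ddx55 and Brf2. For Sst these were Cxcl13 (0.658 and 0.668), Skap1 and Retnla, and for Chgb Itga2 (0.620 and 0.618), Trim40 and Cdhr2. Chga went with Coq9, Calm3 and the parathyroid hormone gene Pth (0.581 and 0.864), Gcg with Pnisr, Lmbr1 and Ppat, and Neurod1 with Ptpn2, Gadd45a and 1600012H06Rik, with the lower of their correlations between 0.526 and 0.585. Ins2 and Avp had a median under 1 CPM in both tables, and no partners are given for them. These are descriptions over libraries that share depth and scaling.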

How the data were processed

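RNA of sorted mouse mTECs was measured in 47 libraries. Per the study's methods and the submitters' processing notes, the authors trimmed total RNA reads with fastp 0.20.0, aligned them with STAR 2.7.3a to mm10 using an Ensembl annotation whose release is not given in the sources used here, dropped reads of low mapping quality with SAMtools 1.9 and duplicates with Picard 2.21.1, and deposited raw counts per gene from HTSeq 0.11.2, counted without strand. Removing duplicates compresses high counts. The authors' normalized tables were not used. Symbols matched 99.84% of adult and 99.41% of neonatal gene identifiers.

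The adult (4 groups, 19310 genes tested) and neonatal (7 groups, 20196 genes tested) tables were fitted apart in R 4.3.3 with edgeR 4.0.16 (filterByExpr, TMM, quasi-likelihood fit over all groups of a table, prior count 0.125); limma 3.58.1 was loaded by edgeR. Adjusted p-values are from edgeR with Benjamini-Hochberg correction. The scripts were tested on simulated data. No replicate pair agreed within sampling noise (closest chi-square per degree of freedom 1.23, adult mTEChi WT replicates 1 and 2). Some groups fell into close pairs. In adult mTEChi AireKO, replicates 1 and 2 (5 weeks) gave 1.34 and replicates 3 and 4 (6 weeks) 1.28, against 4 to 6.39 across them. Neonatal mTEChi Ctrl replicates 1 and 2 gave 1.24, against 4.22 to 4.86 with the others. The p-values treat all libraries of a group as independent. Members and lists were chosen with earlier results of these data known. All 10 members were tested in every comparison, and those called in it were named. Named besides were up to 4 called genes of each list by smallest p and the targeted genes Aire and Eed. For each member with a median of at least 1 CPM, the 3 genes with the highest lower correlation of deviations of log2(CPM + 1) from group means were named too. Alternatives were other scalings, no filter, other prior count, no minimum change, only the groups compared, DESeq2 1.42.0, age, sex and library kind, each library left out, and the replicate number as a block. Replicate numbers came from the labels, and deviations of same-numbered libraries correlated above 0.1 in every pair only for adult AireKO fractions (0.145 to 0.238), neonatal mTEChi AireEEDdKO and AireKO (0.122 to 0.226) and AireEEDdKO fractions (0.304 to 0.432).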

Additional observations from a re-analysis of the deposited data

Results flagged for a closer look

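In 4 of 55 tested sets of 4 to 10 libraries, 1 library stood far from the rest by Dixon's criterion, which chance gives in about 1 of 20. Gcg read 57.6 CPM in adult mTEClo WT replicate 3, where the next library read 8.15 CPM. Neurod1 read 29.3 CPM in neonatal mTEClo EEDcKO replicate 4, where the next read 4.69 CPM. Chgb read 10.4 CPM in neonatal mTEClo EEDcKO replicate 3, where the next read 2.51 CPM. Avp read 0.626 CPM, a single count, in adult mTEClo AireKO replicate 2 and 0 in the other 3 libraries.

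The change with Aire differed between the adult fractions for Chgb (-2.73, mTEChi minus mTEClo, edgeR adjusted p = 0.028) and for Sst (edgeR adjusted p = 7.7e-05). All mTEChi AireKO libraries are of the kind without mitochondrial counts. With the kind of library as a term both calls held, and Chgb stood at -3.18.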

How the results depend on the processing

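Of 58 calls of a member in a comparison, 30 held in every alternative that gave a value, 34 held in every fit without 1 library, and 0 reversed direction. Counts of called members changed by over 1.5 times as follows, and beyond what is said below the cause was not tested. In adult mTEClo AireKO against WT, 2 became 4 with the replicate block, 1 with age in weeks and 1 with DESeq2. The Aire-by-fraction count of 2 became 4 with DESeq2, and that of 4 between adult AireKO fractions became 2 with only the groups compared, where Sst gave no value. In neonatal mTEChi AireKO against Ctrl, 6 became 3 with the replicate block and 3 with age class. With only the groups compared, AireEEDdKO against AireKO went from 1 to 2, the Aire-by-EED count from 0 to 1 (also 1 with no filter), mTEClo EEDcKO against Ctrl from 5 to 3 (also 3 with the replicate block and with age class), and mTEClo AireEEDdKO against EEDcKO from 5 to 0. Of these calls, Neurod1 and Avp in the former and Sst and Avp in the latter gave no value with only the groups compared, so that part of the fall is from genes without a value.

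Without 1 library each, counts ran from 5 to 7 in adult mTEChi AireKO against WT, 1 to 4 in mTEClo, 3 to 5 between WT fractions, 3 to 5 between AireKO fractions and 1 to 3 for Aire by fraction. In neonates they ran from 1 to 2 for mTEChi EEDcKO, 3 to 6 for AireKO, 0 to 1 for AireEEDdKO against AireKO, 3 to 5 against EEDcKO, 0 for Aire by EED, 1 to 6 for mTEClo EEDcKO, 2 to 6 for mTEClo AireEEDdKO, 3 to 6, 6 to 8 and 1 to 3 between Ctrl, EEDcKO and AireEEDdKO fractions, and 0 to 1 for EED by fraction.

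The labels name no pairs. In the 3 comparisons where same-numbered libraries correlated above 0.1 in every pair, the replicate block changed no member's call. Elsewhere it ended 10 calls: Gcg in adult mTEChi, Insm1, Gcg and Ghrl in neonatal mTEChi AireKO, Neurod1 and Chga in mTEClo EEDcKO, Insm1 in mTEClo AireEEDdKO, Chgb and Gcg between Ctrl fractions and Chga between EEDcKO fractions. It brought 6: Gcg and Ghrl in adult mTEClo and between WT fractions, Neurod1 in mTEClo AireEEDdKO against EEDcKO, and Ghrl between EEDcKO fractions. Scaling by library size alone took the median of all genes from -0.0211 to -0.201 for Aire by fraction, and from 0.0346 to -0.18 in neonatal mTEChi AireKO. It changed the calls higher in neonatal mTEChi AireKO from 718 of 3311 to 357 of 3441, and in Aire by EED from 163 of 253 to 177 of 230. Low counts limit Neurod1, Ins2 and Avp most. Subsets by library kind gave no value where a comparison lacked such libraries.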
